A study of Mus musculus with 80 samples.

Results

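RXR ChIP-Seq intervals were examined on 10 genes of the neuronal cytoskeleton and growth cone, out of 21938 protein-coding genes of chromosomes 1 to 19, X and Y in GENCODE release M21. The members are Mapt, Map1a, Map1b and Map2, which encode microtubule-associated proteins, the stathmins Stmn1, Stmn2, Stmn3 and Stmn4, and Gap43 and Basp1, which encode growth cone membrane proteins. They were chosen from an earlier look at these same peak lists, in which exonic intervals of neuronal genes stood out in KO livers, so the intervals below are a description and carry no test. In that measurement, chromatin was precipitated with an antibody to the retinoid X receptor (RXR), the nuclear receptor that pairs with PPARγ, and the DNA was sequenced and compared with the input of the same liver. Groups of 5 livers came from male mice, either C57BL6/J WT or with liver-specific KO of PPARγ. In the KO mice, PPARγ-loxP alleles were recombined by Cre under the albumin promoter and thus in hepatocytes. The paper gives The Jackson Laboratory as the source of the WT mice and does not call them littermates of the KO mice. Mice of each genotype received for 12 weeks a control diet (Control), that diet with pioglitazone, an agonist of PPARγ (Pio), a high-fat diet (HFD) or the high-fat diet with pioglitazone (HFD-Pio), and were 5 months old when livers were taken. In total there were 8 groups, 40 ChIP libraries with peak lists and 40 inputs, and all positions are on mm10 (GRCm38).

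Microtubules are polymers of tubulin that run along axons and dendrites. Tau, the product of Mapt, and the MAP1 and MAP2 proteins bind along them and stabilize or space them, whereas stathmins bind free tubulin and favour disassembly. GAP-43 and BASP1 sit under the membrane of the growth cone, the motile tip of an extending axon. The members are known as markers of neurons, some of them above all of developing or regenerating ones, and not of hepatocytes. Stmn1 is also made in dividing cells of other tissues.

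The genotypes differed in depth and in how peaks were called, and these cannot be told apart from the genotype. WT ChIP libraries kept 2.04 to 4.26 megatags and KO libraries 0.628 to 1.06 megatags, the WT lists were made at a p cutoff of 0.001 and the KO lists at a q cutoff of 0.05, and they held 579 to 33705 intervals in WT and 7630 to 30437 in KO livers. In 6 WT libraries, Pio 2, 3 and 5 and HFD-Pio 1, 4 and 5, the fragment length estimated by the peak caller was 45 to 48 bp, against 169 to 292 bp in the other 14 WT libraries, and many of their intervals are as narrow as that estimate. For the 15 KO ChIP libraries of Pio, HFD and HFD-Pio, RXR stands in the title but the antibody field reads none. The libraries are of bulk liver, so more cells of a type and more signal per cell cannot be told apart.

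A member was called in a liver when an interval on its gene body had its strongest summit in one of its exons, and in a group when called in at least 3 of 5 livers. All 10 members were called in each of the 4 KO groups, whereas 21.1% of all protein-coding genes were called in KO Control, 26.1% in KO Pio, 22.8% in KO HFD and 24.2% in KO HFD-Pio. Of the 10 members, 9 were called in all 20 KO livers, against 7.42% of all genes, and the exception was Map1a, which lacked an interval in KO Control 4 alone. In WT livers no member was called in Control, HFD or HFD-Pio, where 0.0410%, 0.0137% and 3.90% of all genes were called, and 1 member, Stmn1, was called in WT Pio, where the share of all genes was 6.38%. Since the members were chosen from such calls, nothing is read from these differences.

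**Figure D1:**
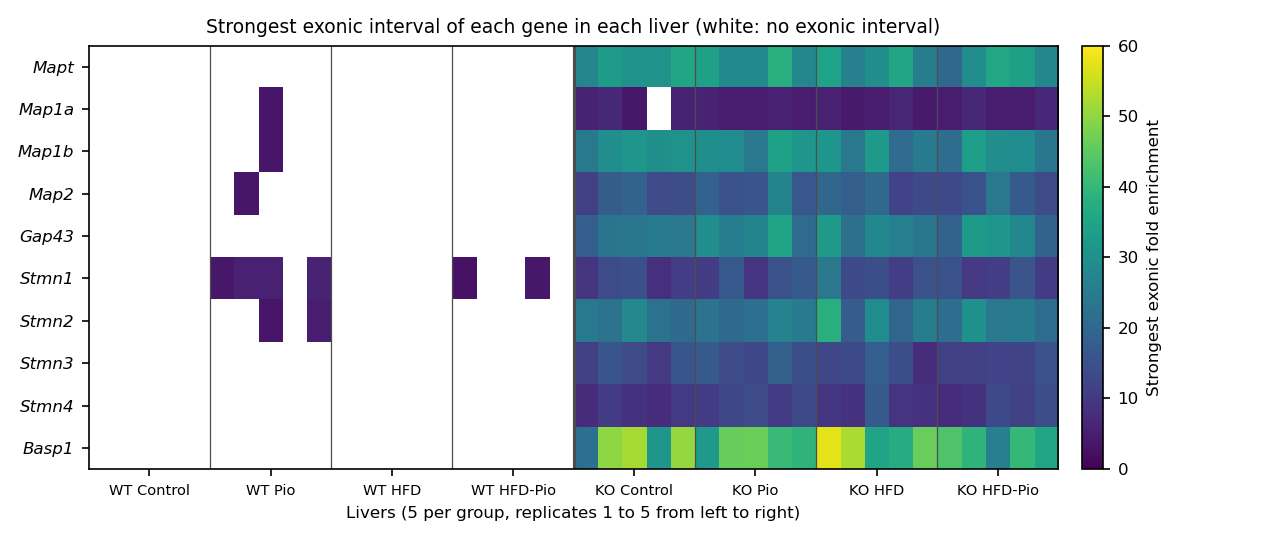
Strongest exonic fold enrichment of each member (rows) in each of the 40 livers (columns, 5 per group), on a linear colour scale, with white where no exonic interval was called. The KO columns are filled apart from Map1a in KO Control 4, while 6 of the 20 WT livers, in Pio and HFD-Pio, hold any exonic interval, with fold enrichments of 5.63 or less.

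Sequences of the stathmin exon with the steadiest calls are shown here, since the same exon was called in every KO liver in 4 separate genes. It has 192 coding bases in each gene and was covered in 20 of 20 KO livers in Stmn1 at chr4:134472804-134472995 (+ strand), in Stmn2 at chr3:8554792-8554983 (+), in Stmn3 at chr2:181307216-181307407 (−) and in Stmn4 at chr14:66357846-66358037 (+). The sequences are the reference bases of RefSeq build GRCm38.p6, 5′ to 3′ on the strand of the gene, with capitals at the 111 positions (57.8%) where all 4 genes have the same base.
Stmn1: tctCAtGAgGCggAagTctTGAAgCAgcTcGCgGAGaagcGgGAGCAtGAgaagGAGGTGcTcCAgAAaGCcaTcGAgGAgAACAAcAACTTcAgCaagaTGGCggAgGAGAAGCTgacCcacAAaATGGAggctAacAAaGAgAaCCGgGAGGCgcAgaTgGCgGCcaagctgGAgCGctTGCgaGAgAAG
Stmn2: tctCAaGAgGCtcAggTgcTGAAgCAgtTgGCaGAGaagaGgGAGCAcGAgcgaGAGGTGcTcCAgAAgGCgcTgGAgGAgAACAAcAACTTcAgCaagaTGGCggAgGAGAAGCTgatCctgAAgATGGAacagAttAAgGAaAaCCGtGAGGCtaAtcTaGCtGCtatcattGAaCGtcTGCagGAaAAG
Stmn3: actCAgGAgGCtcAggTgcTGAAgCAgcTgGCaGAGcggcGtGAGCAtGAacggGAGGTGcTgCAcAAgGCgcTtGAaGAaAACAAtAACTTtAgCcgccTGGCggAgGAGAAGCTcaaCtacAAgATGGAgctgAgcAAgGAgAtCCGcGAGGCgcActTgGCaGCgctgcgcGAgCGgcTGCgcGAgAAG
Stmn4: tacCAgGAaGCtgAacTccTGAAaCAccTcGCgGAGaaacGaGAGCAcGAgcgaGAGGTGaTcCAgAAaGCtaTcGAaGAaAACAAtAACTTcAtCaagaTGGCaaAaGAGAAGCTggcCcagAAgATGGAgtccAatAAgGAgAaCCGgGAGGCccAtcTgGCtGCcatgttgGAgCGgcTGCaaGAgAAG
Pairs of these exons shared 69.8% (Stmn3 and Stmn4) to 79.2% (Stmn1 and Stmn4) of their bases. The tags were 48 or 49 bases long, and every 48-base window of the member exons was looked up on both strands of chromosomes 1 to 19, X and Y. No window of this exon of Stmn2 occurred elsewhere, nor did any window from an exon of Stmn3 or Stmn4, so in these 3 genes an exact 48-base match to the exon is a match to that gene alone.

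Intervals on the member genes numbered 1410 in all, 1368 in KO and 42 in WT livers. In KO livers 1083 of 1368 (79.2%) had their strongest summit in an exon of the member, although exons make up 9.31% of the member gene bodies (66.1 of 710.2 kb), and 84.1% of the bases within the intervals were exonic. The same share over the intervals on all protein-coding genes was 85.0% in KO livers, from 76.7 to 91.5% between libraries, so that an exonic place was not particular to the members. What material gave the exonic intervals of KO livers was not tested, and the fold enrichments are those of ChIP over input, not a measure of RXR binding alone. Of the exonic intervals of KO livers, 779 lay in coding sequence, 194 in 3′ UTRs and 67 in 5′ UTRs. The other 43 lay in noncoding exon sequence between the first and last coding base of the gene. Among the 285 with an intronic summit, 137 still touched an exon and 148 lay apart, and their median fold enrichment was 3.78, against 8.55 for exonic intervals. In WT livers 14 of 42 intervals (33.3%) were exonic, beside 38.5% over all protein-coding genes, a share that ran from 4.54% in WT HFD to 47.2% in WT Pio. The 6 libraries with a short fragment estimate held 31 of the 42 intervals and 13 of the 14 exonic ones, and in the 14 others 1 of 11 was exonic. In WT livers fold enrichments ran from 2.73 to 5.63 with 2 to 10 tags piled up at the summit. In KO livers they ran from 2.69 to 57.5. The median number of tags at the summit was 7 in KO and 3 in WT livers.

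When overlapping intervals of KO livers were merged, 165 sites resulted on the 10 genes, of which 54 were found in at least 10 of 20 livers and 29 in all 20. Intervals merged into a site need not all share a base. Each of the 54 touched an exon, and the median summit was coding in 39, in a 3′ UTR in 8, in a 5′ UTR in 2, in a noncoding exon in 1 and just outside an exon in 4. Of the 111 sites found in fewer livers, 74 were seen in a single liver, and 87 had an intronic summit. Some long exons were covered over nearly all of their length. The last exon of Mapt, 4119 bp long, carried intervals with a median width of 4174 bp, and the 6490-bp exon of Map1b carried intervals of 6657 bp, whereas those of Map1a and Map2 were covered in pieces, with a median width of 1038 bp on the 3741-bp exon of Map2. The strongest recurrent site touched the last exon in 7 members, and in 6 members the first annotated exon had a recurrent site as well.

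By fold enrichment, the mean over the 20 KO livers of the strongest exonic interval was highest for Basp1, 41.1 ± 9.24 (SD, n = 20), followed by Mapt at 30.6 ± 4.34, Map1b at 28.3 ± 4.08, Gap43 at 25.6 ± 4.85 and Stmn2 at 24.3 ± 4.51. The others were Map2 at 16.8 ± 3.94, Stmn3 at 13.6 ± 2.66, Stmn1 at 13.2 ± 3.67, Stmn4 at 10.7 ± 2.60 and Map1a at 5.00 ± 1.46, the last with 1 liver counted as 0. Fold enrichment is a ratio at 1 position and does not add up with length. Neighbours in this order differed by less than the larger of their SDs, except Basp1 from Mapt, Stmn2 from Map2 and Stmn4 from Map1a. The members share the same 20 livers from 4 treatments, so these SDs are not the spread of a difference within livers. Among the 1628 genes called in all 20 KO livers, whose median was 7.24, Basp1 ranked 8, Mapt 17, Map1b 23, Gap43 32, Stmn2 35, Map2 100, Stmn3 160, Stmn1 178 and Stmn4 287. Map1a, called in 19 livers, has no rank, and its mean lies below that median.

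Mapt lies on chr11:104231390-104332090 (+ strand) and encodes tau. No WT liver had an exonic interval on it, and 2 WT livers had 1 intronic interval each. In KO livers its strongest exonic fold enrichment was 27.3, 33.01, 30.6, 30.5 and 35.2 in the 5 livers of Control and 34.2, 28.7, 28.8, 37.6 and 27.9 in Pio. In HFD it was 34.9, 26.02, 29.6, 35.4 and 25.4, and in HFD-Pio 20.4, 29.3, 35.96, 34.04 and 27.98. The 4 groups overlapped throughout, and the lowest value was that of HFD-Pio 1. The strongest site covered the last exon at chr11:104327845-104332086 in 20 of 20 livers with a median fold enrichment of 30.0, and the first, untranslated exon had a site in 19 livers with a median of 8.597.

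The coding exons of Mapt were not called alike. Annotated coding sequence was merged over transcripts into segments, of which 13 are described, and a segment counted in a liver when intervals covered at least 50% of it. From the 5′ end, 8 segments were covered in 17 to 20 KO livers, namely those of 100, 66, 50, 133, 266, 82, 113 and 213 bp. The 5 others were covered in 0 to 3 livers: each of the 87-bp segments, the 759-bp and the 54-bp segment in 0 and the 198-bp segment in 3. The 87-bp exons encode the amino-terminal inserts of tau, and the large 759-bp exon belongs to the high-molecular-weight tau of peripheral neurons. All 5 are absent from some annotated coding transcripts, but this alone did not set them apart, since 12 of the 13 segments are, and 7 of these 12 were covered in at least 10 livers. Over all members, 27 of 41 such segments and 20 of 25 segments found in every coding transcript were covered in at least 10 KO livers. As background, tau of the fetal and newborn brain is known to lack the inserts. Each of the segments with 0 livers is annotated in 1 to 5 of the 8 coding transcripts, and the 82-bp exon, covered in 19 livers, in 5. Transcripts were not measured here.

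**Figure D2:**
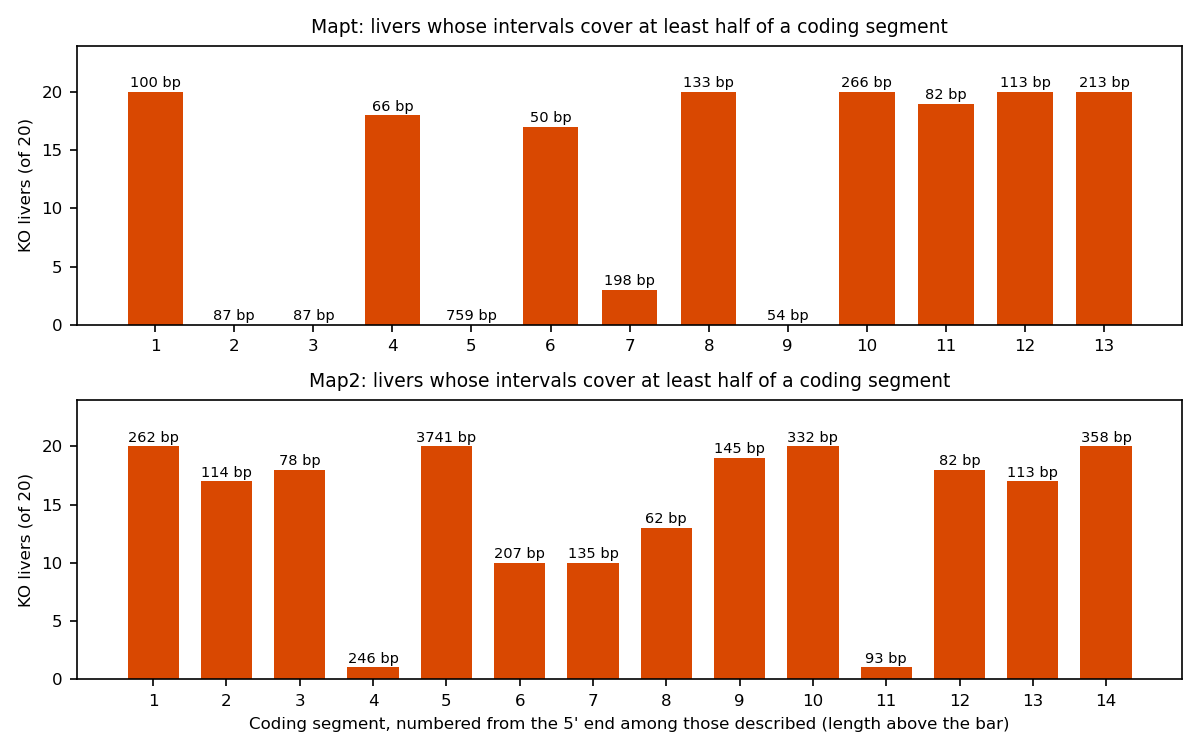
Number of KO livers (of 20) whose intervals covered at least 50% of each described coding segment of Mapt (top) and Map2 (bottom), with segments in order from the 5′ end and their length in bp above the bars. Each of the 87-bp segments of Mapt was covered in 0 livers, and the 246-bp segment of Map2 in 1.

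Map2, on chr1:66175273-66442583 (+ strand), encodes MAP2, the main microtubule-associated protein of dendrites. Of its 14 coding segments 12 were covered in at least 10 KO livers, and the 2 others were the 246-bp segment in 1 liver and a 93-bp segment in 1 liver. This 93-bp exon encodes an optional microtubule-binding repeat of MAP2. The 3741-bp segment, which the large forms of MAP2 contain and the short form MAP2C lacks, was covered in 20 of 20 livers, and the 82-bp and 113-bp segments that follow the 93-bp exon in 18 and 17. The strongest exonic fold enrichment per liver was 11.3 to 18.8 in KO Control, 15.1 to 26.9 in KO Pio, 12.2 to 20.7 in KO HFD and 13.1 to 23.8 in KO HFD-Pio, so that the groups overlapped. The strongest site, at chr1:66438669-66442578 on the last exon, had a median of 14.3. No 48-base window of any exon of Mapt or Map2 occurred elsewhere in the genome.

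Map2 is also the longest member, with 267.3 kb, and it carried most of the intronic intervals of WT livers, 15 of 28. These were 1 to 4 per liver in the 10 WT livers with an interval on Map2, and their fold enrichments did not exceed 4.76. A place shared by WT livers was chr1:66333057-66333403, called in HFD 2 at 4.76, which overlapped an interval of HFD-Pio 3 at 4.23, with the first summit 10761 bp from the nearest exon. Exonic intervals of WT livers on Map2 numbered 1, in the 5′ UTR in Pio 2 at 3.65.

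Map1b, on chr13:99421446-99516540 (− strand), encodes MAP1B, which is abundant in growing axons, and all of its 7 coding segments were covered in 17 to 20 KO livers. Its strongest exonic fold enrichment was 24.4 to 31.5 in KO Control, 24.1 to 34.3 in KO Pio, 20.9 to 32.2 in KO HFD and 21.4 to 33.7 in KO HFD-Pio. The site at chr13:99429011-99435826, found in 20 of 20 livers with a median of 29.5, spans the 6490-bp coding exon, which a single interval covered whole in 18 livers and 2 intervals with a gap in KO Control 1 and KO HFD-Pio 3, and the site on the last exon had a median of 22.9. In WT livers 1 exonic interval was called, in Pio 3 at 3.65 inside that coding exon.

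Map1a, on chr2:121289600-121310832 (+ strand), encodes the related MAP1A, which is known to increase as neurons mature. It was the weakest member, although its 8104-bp coding exon is longer than that of Map1b, and no coding segment was covered in 10 or more livers. The calls were short pieces within the long exon and the 3′ UTR, 124 intervals in KO livers with a median width of 181.0 bp and a median fold enrichment of 3.77. Their median number of tags at the summit was 3. The strongest per liver was 5.66, 6.60, 3.75, none and 5.64 in KO Control, 4.68 to 5.64 in KO Pio, 4.22 to 6.54 in KO HFD and 4.62 to 6.72 in KO HFD-Pio. The most frequent of its 4 recurrent sites, chr2:121303316-121305056, was found in 18 of 20 livers. This merged site is 1741 bp wide, while its intervals had a median width of 229 bp, so the livers need not share a base. In every KO liver the strongest interval of Map1b was above that of Map1a, 20.9 or more against 6.72 or less. In WT livers 1 exonic interval was called, in the 3′ UTR in Pio 3 at 3.65, outside every KO site of the gene. Map1a overlaps Ppip5k1 of the other strand at its 3′ end, beyond its recurrent sites.

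Stmn2, on chr3:8509360-8561606 (+ strand), encodes SCG10, the stathmin of growth cones. Its 5 coding exons were each covered in 20 of 20 KO livers. The strongest exonic fold enrichment was 24.3, 22.6, 28.2, 22.7 and 20.8 in KO Control and 22.96, 20.8, 22.02, 26.6 and 24.6 in KO Pio. It was 37.9, 17.3, 29.1, 19.6 and 25.1 in KO HFD and 21.6, 30.1, 23.8, 24.5 and 21.3 in KO HFD-Pio. The widest spread was within HFD, which held both the highest and the lowest value. In WT livers the 192-base exon was called in Pio 3 at 3.65 and Pio 5 at 4.69, both within the KO site at chr3:8554680-8555102, where the KO median was 18.7, and both are libraries with the short fragment estimate.

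Stmn3, on chr2:181306459-181314500 (− strand), and Stmn4, on chr14:66344296-66361680 (+ strand), encode neuronal stathmins of Golgi and axon membranes, SCLIP and RB3. All 5 coding exons of Stmn3 were covered in 16 to 20 KO livers. Of the 7 coding segments of Stmn4, 5 were covered in 12 to 20 livers and those of 81 and 18 bp in 0. Of its 4 segments that some coding transcripts lack, 2 were thus covered in at least 10 livers and 2 were not. The strongest fold enrichment ran from 7.73 to 18.4 in Stmn3 and from 7.51 to 16.9 in Stmn4. No WT liver had an exonic interval on either gene, and Stmn4 had no interval of any kind in 20 WT livers.

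Stmn1, on chr4:134468320-134473843 (+ strand), encodes stathmin itself, and its WT and KO calls lay at different places. In WT Pio it was called in 4 of 5 livers, with a strongest fold enrichment of 3.85 in Pio 1, 5.61 in Pio 2, 5.47 in Pio 3 and 5.63 in Pio 5 and none in Pio 4. In WT HFD-Pio it was called in liver 1 at 2.81 and liver 4 at 3.81, and it was called in no liver of WT Control or HFD. Of the 9 WT intervals, 7 lay in the 3′ UTR of the last exon and 2 in a coding exon further upstream. In KO livers the strongest exonic fold enrichment was 9.18, 14.01, 14.7, 8.17 and 10.9 in Control and 10.8, 16.6, 9.13, 14.8 and 17.1 in Pio, then 23.7, 13.2, 14.4, 10.9 and 14.9 in HFD and 15.02, 9.89, 10.9, 15.9 and 10.5 in HFD-Pio. The groups overlapped, and each of these 20 values came from the 192-base exon, at a site of chr4:134472682-134473049 that no WT interval touched.

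Stmn1 is also the member with the most repeated sequence. Of the 48-base windows of its last exon, 96.0% occur elsewhere in the genome, against 66.9% in the 192-base exon, 14.8% in the merged exon from chr4:134469742-134470839 and 0.0% in the first. Intervals of 0 KO livers and 5 WT livers touched the last exon, and the coding segments of 173 and 79 bp were covered in 0 KO livers. Over the exons of the whole gene 40.9% of windows recur, against 1.08% in Stmn2 and 0.0% in the 8 other members. The part of this in the different places was not tested, and how reads with several matches were placed is not given in the sources used here.

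**Figure D3:**
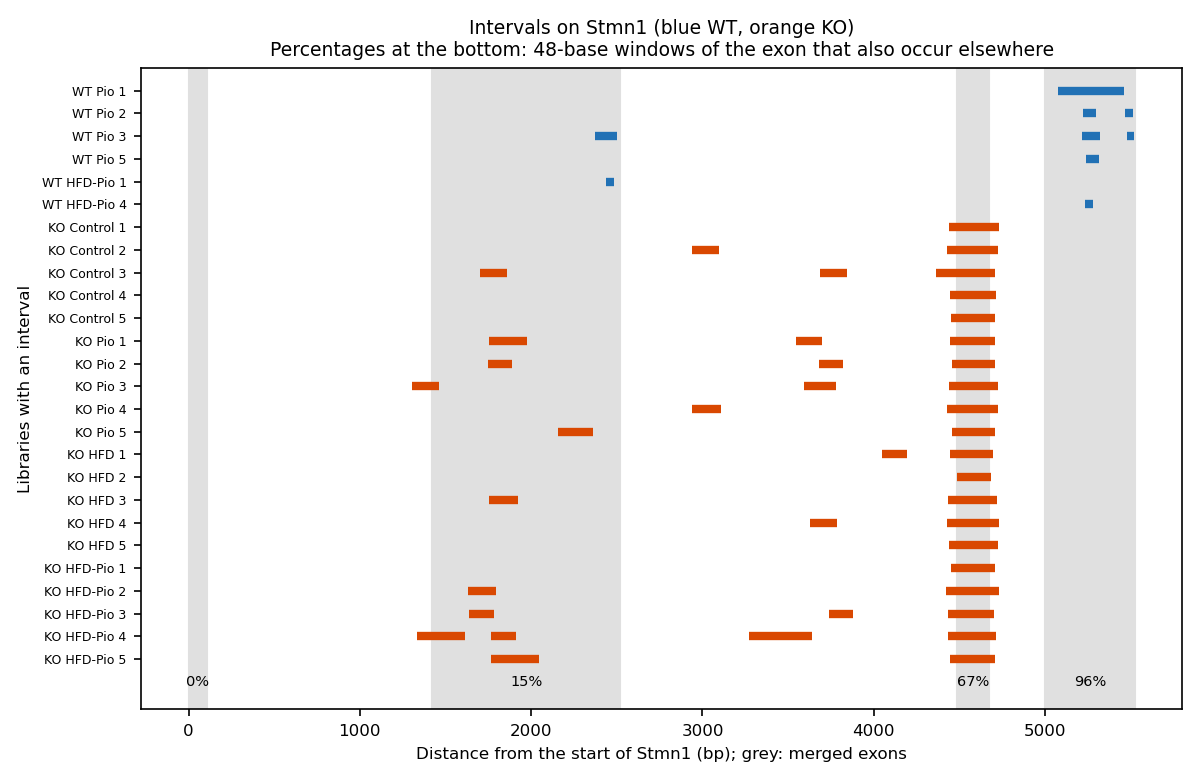
Intervals on Stmn1 in each library that had any (rows), by distance in bp from the start of the gene, with WT libraries in blue, KO libraries in orange and merged exons in grey. The 20 KO libraries line up on the 192-base exon, and 5 of the 6 WT libraries have an interval on the last exon, where 96.0% of 48-base windows also occur elsewhere.

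Gap43, on chr16:42248442-42340651 (− strand), encodes GAP-43, a substrate of protein kinase C in growth cones. Exons make up 1.65% of its gene body, and its 3 coding exons were each covered in 20 of 20 KO livers. The strongest exonic fold enrichment was 17.9, 23.04, 23.6, 24.7 and 23.8 in KO Control and 29.4, 25.4, 27.2, 34.9 and 21.04 in KO Pio. It was 32.2, 22.1, 28.04, 26.0 and 23.6 in KO HFD and 18.9, 32.7, 31.5, 28.1 and 18.8 in KO HFD-Pio. These ranges overlapped, with the lowest median, 23.6, in KO Control. All 5 intervals of WT livers on Gap43 were intronic.

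Basp1, on chr15:25363277-25413764 (− strand), encodes BASP1, a membrane protein related in function to GAP-43, and its coding sequence lies in a single segment of 678 bp with a GC content of 74.5%. The strongest exonic fold enrichment was 21.8, 49.9, 51.8, 31.5 and 50.5 in KO Control and 32.3, 46.1, 46.6, 40.5 and 39.1 in KO Pio. It was 57.5, 52.4, 35.01, 37.2 and 46.4 in KO HFD and 43.5, 39.1, 26.2, 39.9 and 35.6 in KO HFD-Pio. Control and HFD held the lowest and the highest value of the 20 livers, and the groups overlapped. The site on the coding exon had a median of 40.2 and that on the first exon, 5′ UTR, a median of 16.04, both in 20 of 20 livers. In WT livers 1 intronic interval was called, in Pio 2 at 2.81.

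All 10 members were called in KO groups with and without Pio. No member was gained, that is, called in at least 3 of 5 Pio livers and 0 of 5 livers without Pio, in KO Pio against KO Control, where 0.930% of all genes were gained, or in KO HFD-Pio against KO HFD, where 0.383% were. In WT livers 1 of 10 members was gained on control diet, Stmn1, against 6.19% of all genes, and 0 of 10 on HFD, against 3.84%. No member was lost in any of these 4 comparisons. A count of 1 in 10 is near the background, and in WT Pio, 3 of the 4 livers with Stmn1 are libraries with the short fragment estimate. Of all member and liver pairs 18% were called in WT Pio and 5% without these libraries (2 livers left), and in WT HFD-Pio 4% and 0%. The number of exonic intervals on the members per liver was 53.4 ± 5.37 in KO Control, 53.2 ± 3.70 in KO Pio, 53.6 ± 7.34 in KO HFD and 56.4 ± 3.85 in KO HFD-Pio (SD, n = 5), so that differences between treatments were smaller than the spread between livers. In WT Pio it was 2.40 ± 2.30 and in WT HFD-Pio 0.400 ± 0.548.

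Other genes of the same biology were read from lists chosen with earlier results of these data known. Of 27 other neuronal microtubule and growth cone genes, 25 were called in KO Control, KO HFD and KO HFD-Pio and 26 in KO Pio, and 22 in all 20 KO livers. In WT Pio 2 of them were called, Marcks, an actin-binding kinase substrate, in 5 livers and Dpysl2, which encodes CRMP2, in 4, and Marcks was also called in 5 livers of WT HFD-Pio. Of 23 microtubule genes that most tissues express, 18 were called in 3 KO groups and 19 in HFD-Pio, 15 of them in all 20 KO livers, and 3 in WT Pio, namely Gabarap, Kif5b and Dync1h1. Of all protein-coding genes, 21.1 to 26.1% were called per KO group and 7.42% in all 20 KO livers. The share of all genes was 6.38% in WT Pio and 3.90% in WT HFD-Pio. The median over genes of the mean strongest fold enrichment in KO livers was 20.5 for the members, 11.2 for the other neuronal genes and 6.41 for the broadly expressed genes. Thus high values were not kept to the members, which were chosen for them.

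Markers of cell types were read in the same way, by their exonic calls, beside the shares of all genes given above. Peak lists do not measure expression, and whether these calls follow it was not tested. All 12 neuron markers were called in each KO group, from 9 to 12 per liver, with summed fold enrichments of 85.9 to 167.1 in KO Control, 108.8 to 141.7 in KO Pio, 90.1 to 154.5 in KO HFD and 102.1 to 148.8 in KO HFD-Pio. Of these, Tubb3, which encodes the neuronal beta-tubulin, was called in WT livers too, in 5 of WT Pio and 4 of WT HFD-Pio. It was not alone, since 9 of 12 neuron markers were at 0 in every WT Pio liver, and likewise 9 in WT HFD-Pio. Of 10 glia markers 3 to 4 were called per KO group. Slc1a3 and Sparcl1 were called in all 20 KO livers, with mean fold enrichments of 5.99 and 12.4, Slc1a2 in 4 of 5 livers of KO HFD and 5 of 5 of the other groups, and Cnp in 2 to 5 per group, these 4 named after their values were seen. Mog and Gfap, also named with their values known, were called in 0 or 1 liver per group, and Mbp, Mobp and Aqp4 were at 0 in all 40 libraries. Of 12 hepatocyte markers 1 was called, in each of the 20 KO livers. It is Ttr, named after its values were seen, with a mean fold enrichment of 20.55. Apoa2, Apob, Tat, Cps1 and Fgb were at 0 in all 40 libraries. In WT livers 6 hepatocyte markers were called in 1 Control liver, and 0 in every other WT liver. Smooth muscle markers were called in 2 to 5 of 6 per KO group, and intestine markers in 0 of 6, whereas 3 of 6 of each list were called in WT Pio and in WT HFD-Pio. The part of these in the members' calls was not tested.

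**Figure D4:**
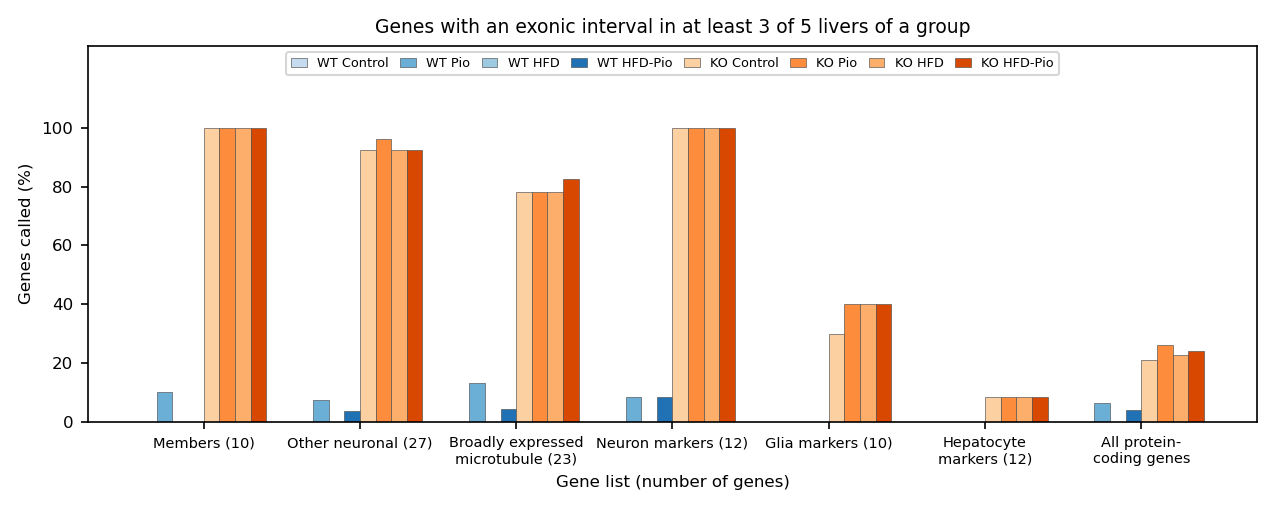
Percent of the genes of each list shown, and of all protein-coding genes, with an exonic interval in at least 3 of 5 livers of a group (bars from 0, WT groups in blue, KO groups in orange). The smooth muscle and intestine markers are not shown. Members and neuron markers reach 100% in the 4 KO groups, against 21.1 to 26.1% of all genes and 1 of 12 hepatocyte markers. In each WT group 0 of 12 hepatocyte markers were called.

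The pattern of the members over libraries was shared by many genes. The 5 genes outside the members whose log2(1 + strongest exonic fold enrichment) over the 40 libraries was most like the mean of the members were Enc1, Nrep, Dcx, Kif21b and Scd2, with Pearson r of 0.995 to 0.996, and 1798 genes reached 0.9 or more. Each of the 5 was called in 20 KO and 0 WT livers. These r mostly reflect the step between genotypes, which also differed in depth and cutoff. Within the 20 KO livers each member had an r of 0.242 to 0.635 with the mean of the 9 others.

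The DNA element bound by RXR with PPARγ is a direct repeat of AGGTCA with 1 base between the copies (DR1). Within 201 bases centred on the median summit, on either strand, 2 of the 54 recurrent member sites (3.70%) held such a repeat with at most 2 mismatches, against 2.44% of all 10337 KO sites found in at least 10 livers, and 0 held an exact repeat. A single exact AGGTCA, which a repeat would also count, was present in 10 of 54 (18.5%), against 12.98%. Matches of this kind are a description of the letters in the window.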

How the data were processed

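RXR ChIP-Seq peak lists of 40 mouse livers, 5 in each of 8 groups, were used, and the 40 input samples were not analysed here. The authors used Novoalign, with mm10 as the genome build, and ran the peak caller MACS2 (2.1.1.20160309) on each library against its input, with a p cutoff of 0.001 in 20 WT and a q cutoff of 0.05 in 20 KO libraries per the file headers. Per the deposited files, each interval has a fold enrichment (the ratio of ChIP to local background at the summit), a pileup signal in tags, and −log10 p and −log10 q values. A second list per library was not used here, and a coding segment of Mapt and the values of a glia marker are not reported here. Reads per site were not used here, so no counting interval or floor was computed.

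Intervals overlapping a gene body of GENCODE M21 by at least 1 bp were taken, summits of an interval were merged, and the place was that of the strongest summit. The reference genome used for sequences was GRCm38.p6, and 69 of 69 member transcripts equalled it at their coordinates. The members and lists were chosen with earlier results of these data known. Members were all named. Of other genes, the rule was to name the 5 most alike, list genes called in at least 3 livers of a WT Pio group, and list genes called nowhere. Slc1a3, Sparcl1, Slc1a2, Cnp, Mog, Gfap and Ttr were named outside this rule. In the list of other neuronal genes, 27 of 28 symbols matched the annotation. Calls were tested on simulated intervals. No test between groups was run, Dixon's criterion was applied within groups of 5, and labels do not say whether livers came from separate cages or litters. Python 3.11.15, numpy 2.4.6, pandas 2.3.3, pysam 0.24.0 and matplotlib 3.10.9 were used.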

Additional observations from a re-analysis of the deposited data

Results flagged for a closer look

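In 46 groups of 5 livers, the strongest exonic fold enrichment of each member in the 4 KO groups and the number of exonic intervals on the members per liver in the groups where it varied, 2 values lay far from the other 4 of their group by Dixon's criterion, and chance gives about 1 in 20. For Gap43 it was the low value of KO Control 1, 17.9, beside 23.04 to 24.7 in the other 4 livers. For Stmn4 it was the high value of KO HFD 3, 16.9, beside 8.57 to 9.59 in the others.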

How the results depend on the processing

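Of 164 recomputed values, 154 stayed within 1.5 times the count, or within 1 SD between livers for shares. Many of these could not move. Leaving out 1 liver could not change any count of members, and the KO lists already met a -log10 q of 1.3. All 10 members stayed called in each KO group when any liver was left out, as was fixed beforehand by calls in 4 or 5 livers. Under the other settings 7 to 10 members were called in KO groups, the lowest in KO Control with lists shortened as below. With -log10 q of at least 5, and with all lists shortened to the 579 intervals of the shortest, the members called in WT Pio and those gained in WT Pio fell from 1 to 0, and with shortened lists 1 member, Stmn4, was gained in KO Pio against KO Control. The exonic share of member intervals in KO livers was 90.5% with -log10 q of at least 5, 90.2% with fold enrichment of at least 5 and 89.2% with any overlap counted, against 79.2%, and in WT livers 100% (2 intervals) and 75.0% (4 intervals) with the first 2 of these, against 33.3%. With -log10 q of at least 1.3, which the KO lists already met, the WT share was 57.9% (19 intervals). That lies within the SD of 31.5 between WT libraries. The cause was not tested. Leaving out the 6 WT libraries with a short fragment estimate was added after seeing the data. No paired analysis was possible because the values came from no test and the labels do not pair livers. Shallow KO libraries and the unlike cutoffs limit any comparison of WT with KO livers.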
